A study of Mus musculus with 16 samples.

Results

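A set of 8 neural genes was examined among the 22232 protein-coding genes of the annotation: the class III POU factors Pou3f1, Pou3f2 and Pou3f3, the class IV POU factors Pou4f1, Pou4f2 and Pou4f3, and the neural precursor genes Nes and Cdh2. The genes were chosen by name, as Pou3f2 with its relatives and as neural genes that the study inspected itself. Pou3f2, Nes and Cdh2 were known from earlier results of these data to carry both marks more widely in PCGF5-deficient than in wild type NPCs, so their values in that comparison are a description. The question asked here is whether the pattern of Pou3f2 holds for its 5 POU relatives.

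ChIP-seq was carried out in 16 libraries, 1 per group, of mouse embryonic stem cells (mESCs) and of neural precursor cells (NPCs) taken at day 6 of neural differentiation in suspension. Peak lists of H2AK119ub1 and H3K27me3 were used for wild type and shPCGF5 cells of both stages, and lists of Flag-PCGF5 for mESCs and NPCs, while 6 input libraries were not analysed here. All cells derive from the 46C line, which carries a Sox1-GFP reporter of neural fate and was grown on feeder fibroblasts in medium with LIF and 2 inhibitors before differentiation. The shPCGF5 cells, called PCGF5-deficient here, express a short hairpin RNA against Pcgf5 from a lentivirus and come from picked puromycin-resistant clones, and the number of clones behind each library is not given in the sources used here. The Flag libraries are labelled wild type but come from a knock-in line in which PCGF5 carries a Flag tag. Peak lists do not measure the level of PCGF5, so its depletion could not be checked. Because each group had 1 library and no file gives read totals, there is no replicate error, the depth is unknown, and no test was made. Every difference below compares 2 libraries.

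Polycomb repressive complexes keep developmental genes silent in cells that do not use them. Complex 1, of which PCGF5 is a subunit in one variant form, attaches ubiquitin to a lysine of histone H2A (H2AK119ub1), and complex 2 trimethylates a lysine of histone H3 (H3K27me3). Both marks often lie over CpG-rich start sites of transcription factors that act later in development, and POU factors of classes III and IV are known examples. Class III POU factors act in neural precursors and young neurons, class IV factors act in sensory neurons, retinal ganglion cells and hair cells of the inner ear, nestin is the intermediate filament of neural precursors, and N-cadherin, the product of Cdh2, joins neuroepithelial cells to each other.

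Coordinates are those of mm9 (NCBIM37), counted from 1. Pou3f1 (ENSMUSG00000078236.3) lies on the plus strand of chromosome 4 from 124334896 to 124337899, and Pou3f2 (ENSMUSG00000052621.2) on the minus strand of the same chromosome from 22413791 to 22415480. Pou3f3 (ENSMUSG00000045515.2) lies on chromosome 1 from 42753991 to 42757052, on the plus strand. Pou4f1 (ENSMUSG00000048349.6) lies on chromosome 14 from 104862737 to 104867216 and Pou4f2 (ENSMUSG00000031688.1) on chromosome 8 from 80956908 to 80960551, both on the minus strand. Pou4f3 (ENSMUSG00000024497.2) lies on chromosome 18 from 42554251 to 42555747, on the plus strand, and Cdh2 (ENSMUSG00000024304.8) on the minus strand of the same chromosome from 16747386 to 16967755. Nes (ENSMUSG00000004891.10) lies on chromosome 3 from 87775015 to 87784373, on the plus strand.

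The members all had start sites richer in CpG than the median gene, 6 of them strongly so, a property the choice of genes did not use. In the 5000 bp around the outermost start site, the ratio of observed to expected CpG was 0.849 at Pou4f1, 0.834 at Pou3f3, 0.790 at Pou3f1, 0.743 at Cdh2, 0.663 at Pou3f2, 0.637 at Pou4f2, 0.517 at Pou4f3 and 0.445 at Nes, against a median of 0.341 over all protein-coding genes. The first 6 lay between the 94.9th and 99.9th percentile of all genes, Pou4f3 at the 83.9th and Nes at the 71.6th. GC content ran from 51.9% at Pou4f3 to 63.6% at Pou3f3, with a median of 47.3% over all genes. The property was not particular to the members. Of the POU genes outside the set, Pou2f1 had a ratio of 0.769, and Pou3f4 and Pou6f1 had 0.507 each, above Nes and close to Pou4f3, while Pou2f2 had 0.393, Pou1f1 0.271, Pou5f1 0.246 and Pou2f3 0.171.

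To show the sequence under the marks, 200 bp centred on the summit of the promoter H2AK119ub1 peak with the highest fold enrichment are given for 3 members, taken from the NPC library with more covered sequence at that gene. They are read 5′ to 3′ on the strand of the gene from NCBIM37, with CpG dinucleotides in capitals. The window of Pou3f2, from PCGF5-deficient NPCs, is chr4:22416528-22416727 on the minus strand and lies upstream of the gene. That of Nes, also from PCGF5-deficient NPCs, is chr3:87775668-87775867 on the plus strand, in a peak centred in a coding exon. That of Pou3f1, from the same library, is chr4:124335255-124335454 on the plus strand, in a peak centred in the coding exon.
Pou3f2: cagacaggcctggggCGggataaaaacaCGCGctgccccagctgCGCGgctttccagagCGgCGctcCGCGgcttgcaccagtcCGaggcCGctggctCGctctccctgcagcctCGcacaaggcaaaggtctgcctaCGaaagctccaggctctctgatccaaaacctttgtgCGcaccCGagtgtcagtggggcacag
Nes: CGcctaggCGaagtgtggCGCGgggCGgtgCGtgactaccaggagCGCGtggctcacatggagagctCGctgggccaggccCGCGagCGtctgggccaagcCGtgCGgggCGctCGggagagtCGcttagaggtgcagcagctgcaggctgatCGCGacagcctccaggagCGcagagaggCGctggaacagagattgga
Pou3f1: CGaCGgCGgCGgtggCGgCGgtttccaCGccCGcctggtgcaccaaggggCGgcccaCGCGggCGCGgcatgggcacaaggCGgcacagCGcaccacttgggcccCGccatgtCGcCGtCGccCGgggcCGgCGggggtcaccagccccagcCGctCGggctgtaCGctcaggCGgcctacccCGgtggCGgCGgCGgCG
The Pou3f1 window held 31 CpG, more than or as many as 98.2% of the summit windows of its list, the Nes window 21 (85.9%) and the Pou3f2 window 16 (78.9%), in a list with a median of 5.

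For each gene and library, the measure used was the number of bp covered by peaks at the promoter, which is the summed width of peaks whose centre lies within 2500 bp of a protein-coding start site. The H2AK119ub1 list of PCGF5-deficient NPCs was the shorter of the NPC pair, with 3845 peaks over 1.12 Mb against 5754 over 2.33 Mb in wild type. The H3K27me3 list of PCGF5-deficient NPCs held more peaks over less sequence, with 14759 over 8.18 Mb against 11371 over 9.67 Mb. The share of these list-wide differences in the values of single genes was not tested. Of the markers of feeder fibroblasts, 0 to 3 of 5 genes had a promoter peak in any list, and of those of pluripotent cells 0 to 3 of 5. Esrrb carried H3K27me3 in all 4 populations, Klf4 in both NPC libraries and Zfp42 in wild type NPCs, so that H3K27me3 covered 5095 bp over these markers in wild type and 2800 bp in PCGF5-deficient NPCs, while Pou5f1 and Nanog had no peak in any list. Of 4 neural precursor markers, which include the member Nes, 1 to 3 had a promoter peak in each histone list, with Pax6 in every one. Over these markers H3K27me3 covered 19439 bp in wild type and 16530 bp in PCGF5-deficient NPCs, and H2AK119ub1 10492 bp and 2662 bp. The lower coverage was thus not particular to the pluripotency markers. Over the feeder markers the values were higher in PCGF5-deficient NPCs, with 1124 bp and 1395 bp of H3K27me3 and 148 bp and 247 bp of H2AK119ub1. A mark at a gene does not give its expression, so these lists cannot check the labelled cell type beyond that.

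All 8 members carried both marks at the promoter in PCGF5-deficient NPCs, and this was the library pair with most members marked. H2AK119ub1 peaks were found at 4 members in wild type mESCs (6.69% of all genes), 6 in PCGF5-deficient mESCs (5.96%), 5 in wild type NPCs (4.98%) and 8 in PCGF5-deficient NPCs (4.17%). H3K27me3 peaks were found at 7 members in each of wild type mESCs (13.4% of all genes), PCGF5-deficient mESCs (12.9%) and wild type NPCs (15.7%), and at 8 in PCGF5-deficient NPCs (15.5%). The 6 POU members carried H3K27me3 in all 4 populations, as did 7.21% of all genes, while Nes lacked it in wild type mESCs, and Cdh2 had it only in wild type mESCs and PCGF5-deficient NPCs. As the members were chosen with earlier results in view, nothing is read from the excess over genes at large.

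**Figure D1:**
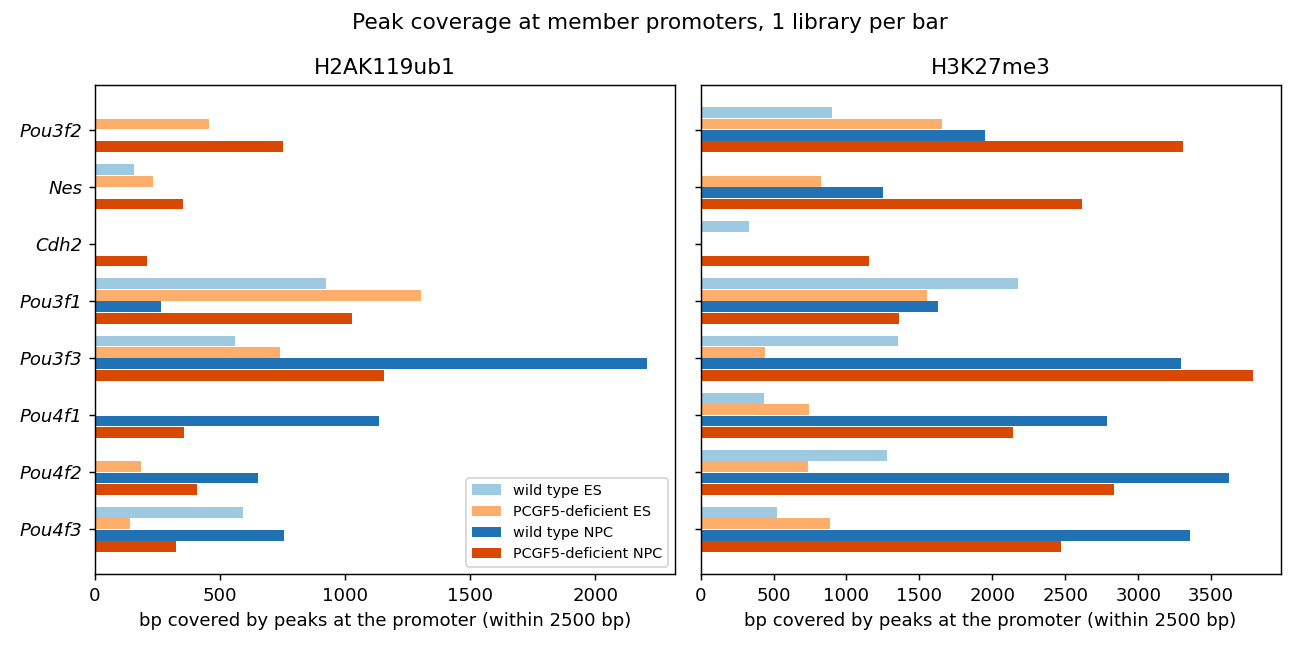
Bp covered by H2AK119ub1 (left) and H3K27me3 (right) peaks at the promoter of each member, with 1 bar for each of the 4 cell populations and 1 library behind each bar. In NPCs, the bars of Pou3f2, Nes and Cdh2 were longer in PCGF5-deficient cells for both marks, and those of Pou4f1, Pou4f2 and Pou4f3 were shorter.

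Pou3f2, a factor of neural precursors and upper-layer cortical neurons, had no H2AK119ub1 at its promoter in wild type NPCs and 751 bp in 3 peaks in PCGF5-deficient NPCs. H3K27me3 covered 1953 bp and 3308 bp. Counted from the start site, with negative positions upstream, the 3 H2AK119ub1 peaks lay from -1230 to -1012 bp and from -785 to -613 bp, outside the gene, and from 253 to 611 bp, in the coding exon. The first of them is the peak of the Pou3f2 sequence shown above. All 3 were overlapped by H3K27me3 peaks of the same cells. Farther upstream, wild type NPCs had a single H2AK119ub1 peak of 139 bp, from -4539 to -4401 bp, and PCGF5-deficient NPCs one of 238 bp, from -4609 to -4372 bp, so the locus was not free of the mark in wild type cells. Within 10000 bp of the start, where every covered base counts whatever the peak centre, H2AK119ub1 covered 139 bp in wild type and 989 bp in PCGF5-deficient NPCs, a 7.12-fold difference, and H3K27me3 2562 bp and 8914 bp, a 3.48-fold difference. The H3K27me3 peaks of PCGF5-deficient NPCs there numbered 14, against 5 in wild type, and most lay upstream of the gene.

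Nes and Cdh2 had the same direction with less covered sequence. Nes had no H2AK119ub1 peak in wild type NPCs and 354 bp in 2 peaks in PCGF5-deficient NPCs, both centred in a coding exon between 337 and 819 bp from the start. H3K27me3 at Nes covered 1252 bp in 1 peak in wild type and 2614 bp in 2 peaks in PCGF5-deficient NPCs, a 2.09-fold difference. One more H3K27me3 peak of 517 bp in PCGF5-deficient NPCs, from 2481 to 2997 bp, had its centre just outside the window and did not count. Cdh2 carried neither mark in wild type NPCs. In PCGF5-deficient NPCs it had a single H2AK119ub1 peak of 208 bp, centred in the UTR, and 3 H3K27me3 peaks of together 1153 bp, 1 upstream of the gene and 2 in the intron. The H2AK119ub1 peak of Cdh2 was the only 1 of the 16 member promoter peaks of that list that no H3K27me3 peak overlapped.

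None of the 5 POU relatives had the pattern of Pou3f2, that is, more covered sequence of both marks at the promoter in PCGF5-deficient NPCs. Pou3f2, Nes and Cdh2 had it, as did 15.0% of the 1400 genes that carried both marks in NPCs of either genotype, and these 3 were known to have promoter H2AK119ub1 in PCGF5-deficient NPCs alone (24.8% of the genes with this mark in NPCs of either genotype). Pou4f1, Pou4f2 and Pou4f3 had less of both marks, which was also the most frequent direction among those genes (51.1%). Pou3f1 had more H2AK119ub1 and less H3K27me3 (20.4%), and Pou3f3 less H2AK119ub1 and more H3K27me3 (13.5%). None of the 5 relatives took on the pattern under any of the 10 alternatives tried, and among the higher-scoring 50% of each list Pou3f2 alone kept it, since the H2AK119ub1 peaks of Nes and Cdh2 scored lower. With a window of 1000 bp Nes lost it, and with peaks within 1000 bp merged Pou3f2 did, as its merged H3K27me3 region in PCGF5-deficient NPCs is centred at -4049 bp. Within 10000 bp of a start site the same 3 members had more of both marks (17.7% of 1813 genes), and Pou3f3 joined the class IV factors with less of both (50.4%).

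Taking the marks one at a time, 4 of 8 members had more H2AK119ub1 in PCGF5-deficient NPCs, against 36.7% of the 1474 genes with the mark in NPCs of either genotype, and 4 had less, against 63.3%. All 4 of the former, Pou3f1, Pou3f2, Nes and Cdh2, differed by 2-fold or more or from 0 (29.0% of genes), and of the latter Pou4f1 and Pou4f3 did (51.8%). For H3K27me3, 4 members had more (37.4% of 4267 genes) and 4 had less (62.6%), and Nes and Cdh2 had more by 2-fold or from 0 (23.7%). With 8 genes and 1 library per group, these counts are near enough to those over all genes that nothing about the set is read from them.

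**Figure D2:**
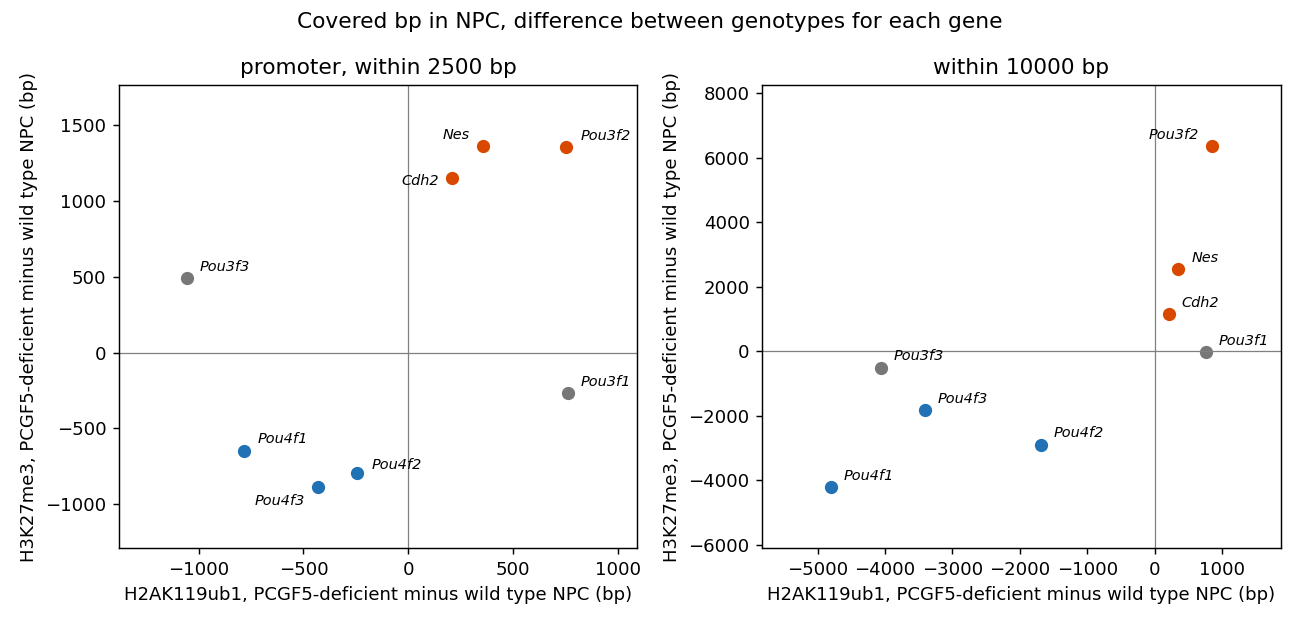
Covered bp in PCGF5-deficient minus wild type NPCs for H2AK119ub1 (horizontal axis) and H3K27me3 (vertical axis), with 1 point per gene, at the promoter (left) and within 10000 bp of a start site (right). Pou3f2, Nes and Cdh2 lie at the upper right in both panels and the class IV factors at the lower left, while Pou3f3 moves from the upper left to the lower left.

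Among the class III relatives, Pou3f1, which acts in the early neural plate and in myelinating Schwann cells, had 263 bp of H2AK119ub1 in wild type and 1026 bp in PCGF5-deficient NPCs, a 3.90-fold difference. The mark was thus present in wild type, in 1 peak in the coding exon, and this peak was overlapped by 1 of the 3 peaks of PCGF5-deficient NPCs, the peak whose sequence is shown above. H3K27me3 at Pou3f1 covered 1629 bp and 1359 bp, and within 10000 bp 1629 bp and 1599 bp, so that the 2 libraries differed by 30 bp. H2AK119ub1 at Pou3f1 was as extensive in mESCs, with 926 bp in wild type and 1302 bp in PCGF5-deficient cells, and wild type NPCs had the lowest value of the 4 populations.

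Pou3f3, which overlaps with Pou3f2 in function in the cortex, had the most H2AK119ub1 of all members in NPCs, with 2208 bp in wild type and 1155 bp in PCGF5-deficient cells, a 1.91-fold difference in the direction opposite to Pou3f2. All 3 wild type peaks were overlapped by a peak of PCGF5-deficient NPCs. The fold enrichment of the highest peak was 5.40 in wild type and 8.34 in PCGF5-deficient NPCs. The peak of PCGF5-deficient NPCs from 1554 to 1691 bp had a fold of 4.18, below the 5.40 of the wild type peak that it overlapped, and the other 2 were above theirs. H3K27me3 covered 3296 bp and 3786 bp at the promoter, the direction of Pou3f2. Within 10000 bp the direction turned, with 9667 bp in wild type and 9156 bp in PCGF5-deficient NPCs, and H2AK119ub1 covered 5215 bp in 11 peaks and 1155 bp in 3 peaks, a 4.52-fold difference.

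**Figure D3:**
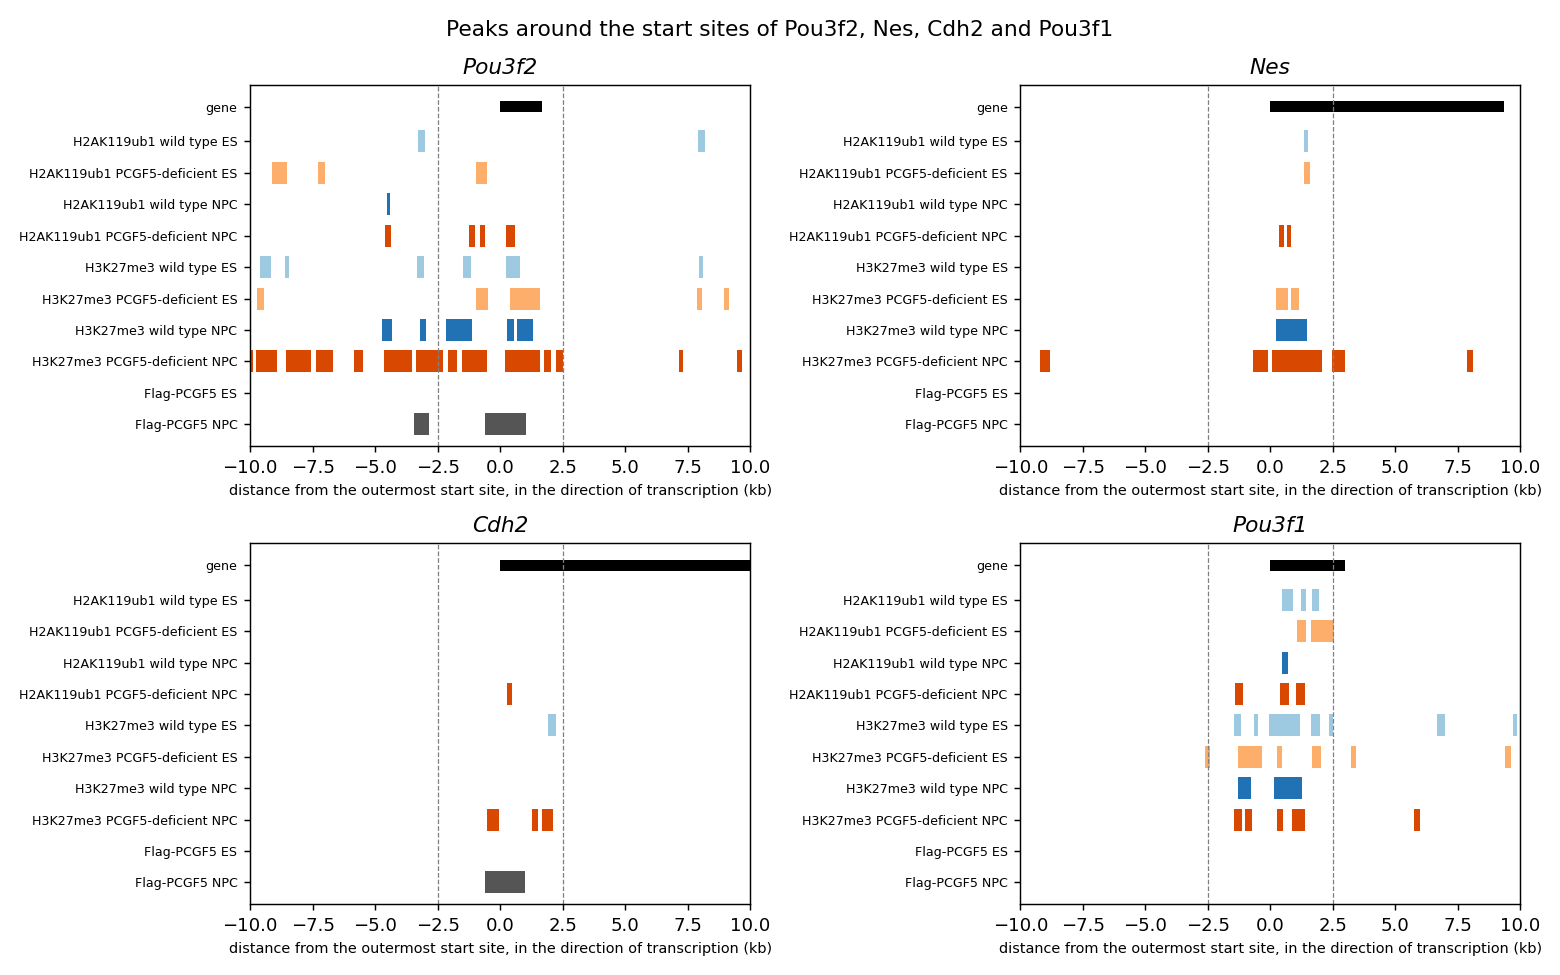
Peaks of all 10 lists within 10 kb of the outermost start site of Pou3f2, Nes, Cdh2 and Pou3f1, plotted against distance in kb in the direction of transcription, with the gene as a black bar and dashed lines at 2.5 kb. At Pou3f2 the H3K27me3 peaks of PCGF5-deficient NPCs extend farther upstream than those of wild type NPCs, and Flag-PCGF5 peaks are drawn at Pou3f2 and Cdh2 in NPCs.

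The class IV factors had less of both marks in PCGF5-deficient NPCs, although H2AK119ub1 at Pou4f2 was higher there in the higher-scoring 50% of peaks, with lists of equal length or with peaks merged, and H3K27me3 was higher at Pou4f1 over the gene body, at Pou4f2 within 1000 bp and at Pou4f3 within 5000 bp. At Pou4f1, a factor of sensory neurons, H2AK119ub1 covered 1136 bp in 4 peaks in wild type and 355 bp in 2 peaks in PCGF5-deficient NPCs, a 3.20-fold difference. The values were 654 bp and 408 bp at Pou4f2, a factor of retinal ganglion cells, and 756 bp and 323 bp at Pou4f3, a factor of hair cells, 1.60-fold and 2.34-fold differences. H3K27me3 covered 2789 bp in wild type and 2142 bp in PCGF5-deficient NPCs at Pou4f1, 3624 bp and 2832 bp at Pou4f2, and 3356 bp and 2469 bp at Pou4f3. The H3K27me3 value of Pou4f1 depends on the window, because a peak of 1269 bp in PCGF5-deficient NPCs, from 1867 to 3135 bp after the start, had its centre just beyond 2500 bp, and a peak of 3135 bp in wild type NPCs, from -4476 to -1342 bp, also did not count.

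Over the wider loci the class IV factors differed more in H2AK119ub1. Within 10000 bp, Pou4f1 had 5539 bp in 13 peaks in wild type and 735 bp in 4 peaks in PCGF5-deficient NPCs, a 7.54-fold difference. Pou4f3 had 3727 bp in 11 peaks and 323 bp in 1 peak, an 11.5-fold difference, and Pou4f2 had 2097 bp in 6 peaks and 408 bp in 1 peak, a 5.14-fold difference. H3K27me3 covered 11288 bp and 7076 bp at Pou4f1, 7146 bp and 4244 bp at Pou4f2, and 9287 bp and 7451 bp at Pou4f3, differences of 1.60-fold, 1.68-fold and 1.25-fold. Together with Pou3f3, 4 of 8 members had less H2AK119ub1 by 2-fold or more at this scale, as did 50.7% of the 1973 genes with the mark there, and 0 had less H3K27me3 by 2-fold or more (32.4%).

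**Figure D4:**
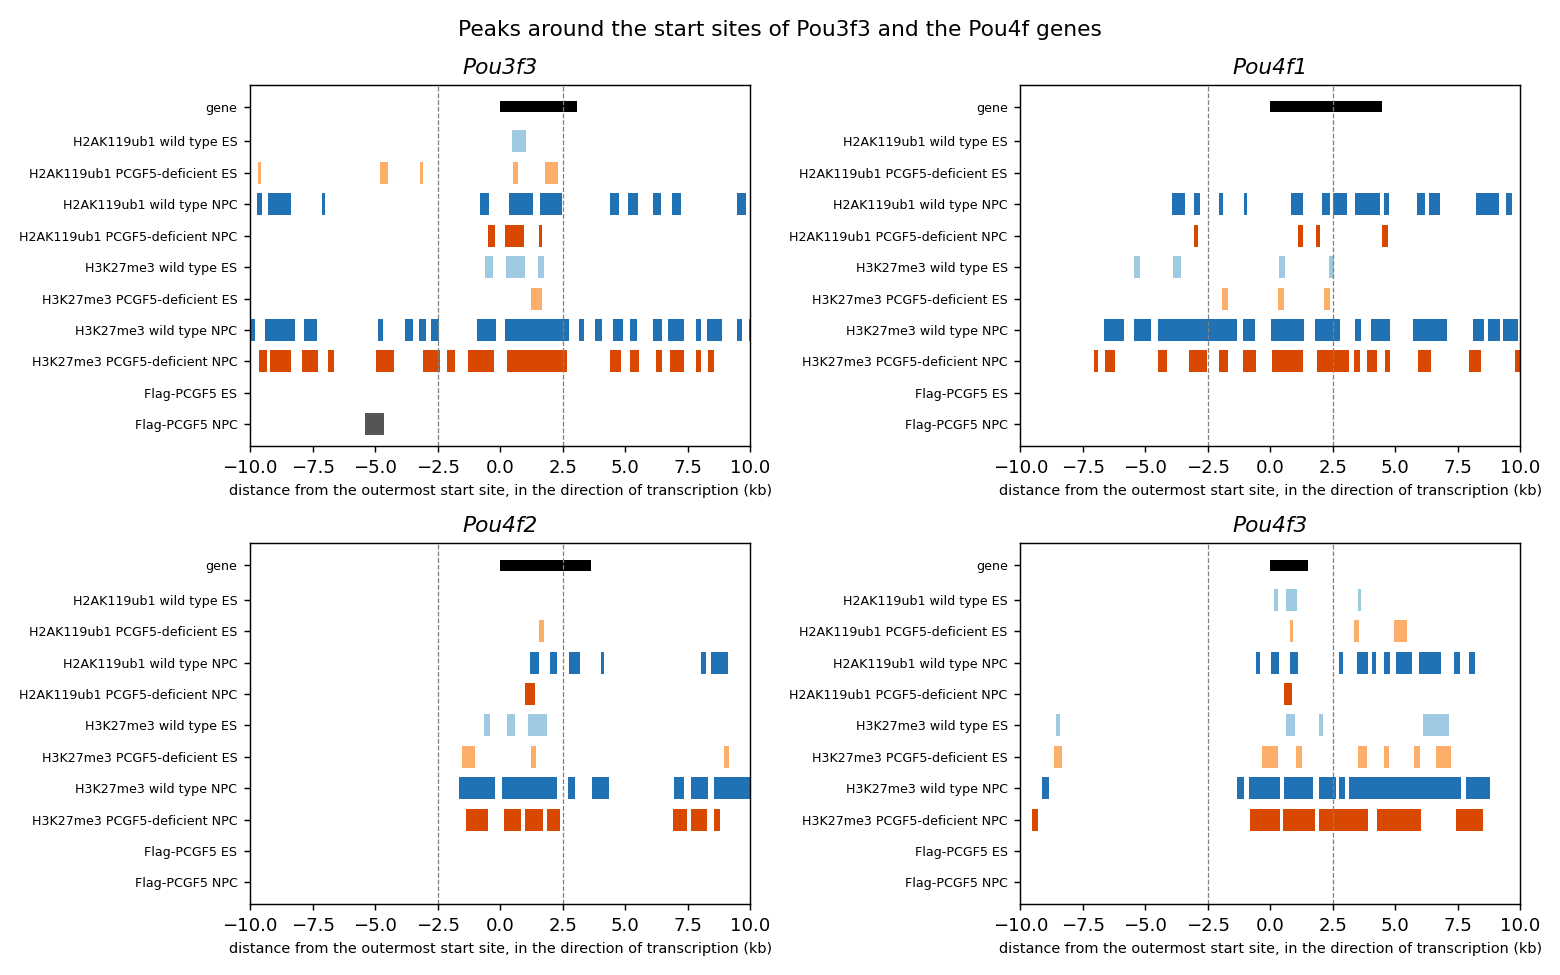
Peaks of all 10 lists within 10 kb of the outermost start site of Pou3f3, Pou4f1, Pou4f2 and Pou4f3, drawn as for the loci of Pou3f2 and Nes. Wild type NPCs had H2AK119ub1 peaks across these loci, 6 to 13 per gene, and PCGF5-deficient NPCs had 1 to 4, most of them near the start.

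In mESCs the same genotypes were set side by side to ask whether the differences were there before differentiation. Of the 6 members with H2AK119ub1 in mESCs of either genotype, 5 had more in PCGF5-deficient cells, against 44.1% of the 2086 genes marked there, and Pou4f3 had less (55.9%), with 592 bp and 140 bp. Pou3f2 had 0 bp in wild type and 458 bp in 1 peak in PCGF5-deficient mESCs, Pou4f2 had 0 bp and 186 bp, Nes 155 bp and 233 bp, and Pou3f3 559 bp and 739 bp. Within 2500 bp, Pou3f2 thus had H2AK119ub1 in both PCGF5-deficient populations and in neither wild type one. Just beyond that window wild type mESCs had a peak of 285 bp, from -3300 to -3016 bp, with a fold of 7.89, higher than that of any H2AK119ub1 peak at the locus in PCGF5-deficient cells, and with a window of 5000 bp the mark covered 285 bp in wild type and 458 bp in PCGF5-deficient mESCs. The mESC peak of PCGF5-deficient cells was of low score, and with the higher-scoring 50% of peaks or lists of equal length Pou3f2 had 0 bp in mESCs of both genotypes. Pou4f1 and Cdh2 had none in mESCs. The count of 5 fell to 1 with a window of 1000 bp, with the higher-scoring 50% of peaks or with lists of equal length.

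H3K27me3 in mESCs was higher in PCGF5-deficient cells at 4 members (45.5% of 3739 genes) and lower at 4 (54.4%). Pou3f2 had 901 bp in wild type and 1657 bp in PCGF5-deficient mESCs, a 1.84-fold difference, and Nes 0 bp and 822 bp, so that both had the direction they had in NPCs. Pou4f1 (434 bp and 744 bp) and Pou4f3 (527 bp and 884 bp) had more in PCGF5-deficient mESCs, unlike in NPCs. Pou3f1 (2176 bp and 1553 bp), Pou3f3 (1350 bp and 443 bp), Pou4f2 (1280 bp and 737 bp) and Cdh2 (330 bp and 0 bp) had less. Within 10000 bp Pou4f1 had 966 bp in wild type and 744 bp in PCGF5-deficient mESCs, so its direction turned with the window. Across both marks and both stages, Pou3f2 and Nes were the members with more in PCGF5-deficient cells in all 4 comparisons at the promoter window of 2500 bp. This did not hold under every alternative. Pou3f2 lost the H2AK119ub1 difference in mESCs as given above, and its H3K27me3 difference in NPCs turned with peaks within 1000 bp merged. Nes lost its H2AK119ub1 difference in NPCs with the higher-scoring 50% of peaks (0 bp in both) and in mESCs with a window of 1000 bp (0 bp in both). The H3K27me3 difference of Nes in NPCs turned with the latter.

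From mESCs to NPCs, H3K27me3 covered more sequence at 6 of 8 members in wild type (73.6% of 4327 genes) and at 7 of 8 in PCGF5-deficient cells (72.6% of 4117 genes), close to the share over all marked genes. In wild type the ratio of NPCs to mESCs was 6.43 at Pou4f1, 6.37 at Pou4f3, 2.83 at Pou4f2, 2.44 at Pou3f3 and 2.17 at Pou3f2, and Nes went from 0 bp to 1252 bp. Pou3f1 went the other way, with a ratio of 0.749, as did Cdh2, from 330 bp to 0 bp. By ChIP-qPCR, the study reports a fall of both marks during differentiation at the promoters of Pou3f2, Nes and Cdh2. The covered bp of wild type cells had that direction for H3K27me3 at Cdh2 and for H2AK119ub1 at Nes, from 155 bp to 0 bp. At Pou3f2 H2AK119ub1 had it within 10000 bp, from 586 bp to 139 bp, with 0 bp at the promoter in both stages. Cdh2 had 0 bp of H2AK119ub1 in both. Only H3K27me3 at Pou3f2 and Nes had the unlike direction. The assay of the study does not measure covered bp, and the reason for the unlike direction was not tested. H2AK119ub1 covered more sequence in wild type NPCs than in wild type mESCs at Pou3f3 and the 3 class IV factors, 4 of the 6 members marked in either stage (42.8% of 2046 genes). In PCGF5-deficient cells it did so at every member but Pou3f1, 7 of 8 (35.4% of 1710 genes). Pou3f2, Nes and Cdh2 were known beforehand to have promoter H2AK119ub1 in PCGF5-deficient NPCs alone. This bears on both counts, so nothing about the set is read from them. Pou3f3 went from 559 bp to 2208 bp in wild type, and Pou4f1 from 0 bp to 1136 bp.

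The NPC peaks were compared with the mESC peaks by position, with an overlap of at least 1 bp. Of the 13 H2AK119ub1 promoter peaks of members in wild type NPCs, 4 (30.8%) were overlapped by a peak of wild type mESCs, against 29.3% of the promoter peaks of all genes. Of the 16 in PCGF5-deficient NPCs, 4 (25.0%) were overlapped by a peak of PCGF5-deficient mESCs, against 37.9%, and 1 of these was among the 3 peaks of Pou3f2. Between the NPC libraries, 7 of the 16 (43.8%) were overlapped by a wild type peak, against 50.2% of all promoter peaks. None of these 7 was at Pou3f2, Nes or Cdh2. These genes were known beforehand to lack promoter H2AK119ub1 in wild type NPCs, so the choice of genes set their part of the count. Nothing is read from it. Of the 17 H3K27me3 peaks in wild type NPCs, 16 (94.1%) were overlapped in PCGF5-deficient NPCs, against 61.6% over all genes. Pou3f2 and Nes, which have some of these peaks, were known beforehand to carry the mark more widely in PCGF5-deficient NPCs, so nothing about the set is read from this count either. All 13 H2AK119ub1 peaks of members in wild type NPCs and 15 of 16 in PCGF5-deficient NPCs were overlapped by H3K27me3 of the same cells. These counts are near the 91.3% and 90.6% over all genes, so the overlap was not particular to the members.

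Flag-PCGF5 was found at the promoters of 2 members in NPCs, Pou3f2 and Cdh2 (13.7% of all genes), and of 0 members in mESCs (0.787%). The peak at Pou3f2 was 1640 bp wide, from -615 to 1024 bp, with a fold enrichment of 2.42, and the peak at Cdh2 was 1609 bp wide, from -620 to 988 bp, with a fold enrichment of 1.91, in a list with a median fold of 2.22. The fold of both was near the median, and the width of both exceeded that at more than 85% of the genes with a promoter peak, at percentiles 86.5 and 85.9. Pou3f2 had a further Flag-PCGF5 peak of 588 bp from -3440 to -2853 bp, and Pou3f3 one of 752 bp from -5399 to -4648 bp. Of the genes with both marks in NPCs of either genotype, 23.0% had a promoter Flag-PCGF5 peak, so 2 of 8 members is close to that share. No Flag-PCGF5 peak lay at the promoters of Nes, Pou3f1 or the class IV factors. By ChIP-qPCR, the study reports higher PCGF5 at the promoters of Nes, Cdh2 and Pou3f2 in NPCs than in mESCs. The lack of a called peak at Nes in a single list therefore does not show that PCGF5 was absent there.

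The other 8 POU genes carried little H2AK119ub1. Pou6f1 had 180 bp in wild type mESCs and 211 bp in wild type NPCs, Pou2f2 had 198 bp in PCGF5-deficient mESCs, and no other gene of the 8 had a promoter peak of this mark in any library. H3K27me3 was found at 4 of the 8 in wild type and 3 in PCGF5-deficient NPCs. Pou6f1 had 483 bp and 1580 bp in wild type and PCGF5-deficient mESCs and 1463 bp and 2403 bp in NPCs, the direction of Pou3f2 at both stages. Pou2f2 had 1099 bp in wild type and 840 bp in PCGF5-deficient NPCs, and Pou2f3, a factor of epidermal and tuft cells, 1728 bp and 1674 bp. Pou3f4, the remaining class III factor, had 268 bp in wild type NPCs and no peak in the other libraries. Pou1f1, a pituitary factor, Pou2f1, which is expressed widely, and Pou5f1, a pluripotency factor, had no promoter peak of either mark.

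Of the 9 other intermediate filament genes, 5 carried both marks in NPCs, of which 1 had more of both in PCGF5-deficient cells and 3 had less of both. The 4 with the most covered sequence over the 8 histone lists were the neuronal filament genes Nefh, Ina, Nefl and Prph. At Nefh, H3K27me3 covered 3851 bp in wild type and 3544 bp in PCGF5-deficient NPCs, and H2AK119ub1 678 bp and 0 bp. Vim, which is co-expressed with nestin in precursors, had 439 bp and 513 bp of H3K27me3 in wild type and PCGF5-deficient NPCs and no H2AK119ub1. Of the 17 other classical cadherins, 3 carried both marks in NPCs and 0 had the pattern of Pou3f2. The most covered were Cdh22, Cdh8, Cdh4 and Cdh3. At Cdh8 H3K27me3 covered 3321 bp in wild type and 1581 bp in PCGF5-deficient NPCs, and at Cdh3 3246 bp and 0 bp, while Cdh4 had 848 bp and 1970 bp, the direction of Cdh2.

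Genes were ranked by likeness to Pou3f2, measured as the summed absolute difference of promoter covered bp over the 8 histone libraries, among 5473 genes with a peak in at least 1 of them. The 5 most like it were Npas3 (1790 bp), Sp8 (2299 bp), Cntfr (2305 bp), Rgs10 (2312 bp) and Sez6l (2331 bp). Npas3, a transcription factor of the developing brain, had 1924 bp of H3K27me3 in wild type and 3572 bp in PCGF5-deficient NPCs, but 177 bp and 0 bp of H2AK119ub1. Cntfr, the receptor subunit for ciliary neurotrophic factor, had both marks in the direction of Pou3f2, with 0 bp and 762 bp of H2AK119ub1 and 675 bp and 3302 bp of H3K27me3. So did Sez6l, with 0 bp and 594 bp of H2AK119ub1 and 2099 bp and 2370 bp of H3K27me3. Sp8 and Rgs10 did not, as their H2AK119ub1 fell like that of Npas3, from 471 bp to 164 bp and from 168 bp to 0 bp. Their H3K27me3 was higher in PCGF5-deficient NPCs, with 2355 bp and 3577 bp at Sp8 and 2646 bp and 3109 bp at Rgs10. The order depends on the measure, and by Pearson correlation over the 8 libraries Npas3 ranked 6th and Cntfr 237th. Of the members, Nes ranked 138th, Pou4f2 393rd, Pou4f1 717th, Pou4f3 768th, Pou3f1 1046th, Pou3f3 1766th and Cdh2 2124th. The POU gene nearest to Pou3f2 was Pou6f1, at rank 70, and the class III relatives lay farther from it than the class IV genes did. The measure weights H3K27me3 most, since it covers more sequence, and it compares single libraries.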

How the data were processed

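Peak lists of 10 mouse ChIP-seq libraries were analysed, and 6 input libraries were left out. The study digested chromatin with MNase before light fixation for histone marks, and crosslinked it doubly and sonicated it for Flag. Upstream steps, by the authors, were Trimmomatic for trimming, Bowtie2 on mm9 for alignment, Picard for duplicates and MACS2 2.1.0 on each library for peaks. Spike-in scaling does not enter the lists. The deposited columns hold a score, a fold enrichment (a ratio over local background), and the −log10 of the p-value and of the q-value. Separate calling makes a list's length depend on depth and background too, and a gene near the calling threshold can gain or lose a peak through either.

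Peaks were assigned to genes of GENCODE M1 (NCBIM37) by their centre within 2500 bp of any protein-coding start site. The counts of 222320 gene and list pairs were checked with bedtools 2.31.1 and 0 differed. Simulated peaks were planted at 200 genes, and 200 of 200 genes were recovered with at least the planted number of peaks and bp. Python 3.11.15 was used, with pandas 2.3.3. Members and comparison lists were chosen with earlier results of these data known. Named were all members, all other POU genes but 1 that is not reported here, up to 4 filament and 4 cadherin genes with the most covered bp, and the 5 genes most like Pou3f2. Nanog was named as a cell type marker and Vim after its values were seen. Alternatives were windows of 1000 and 5000 bp, the gene body, any base of a peak, the outermost start site, the higher-scoring 50% of peaks, equal list lengths, merging within 1000 bp, a q-value of 0.05, an overlap of 50% and, added after the data were seen, all bases within 10000 bp.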

Additional observations from a re-analysis of the deposited data

Results flagged for a closer look

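For 6 values the difference between PCGF5-deficient and wild type cells had one sign in NPCs and the other in mESCs. Each compares single libraries, and whether the stages differ was not tested. At Pou3f3, H2AK119ub1 differed by -1053 bp in NPCs and 180 bp in mESCs, and H3K27me3 by 490 bp and -907 bp. H3K27me3 differed by -647 bp and 310 bp at Pou4f1, by -887 bp and 357 bp at Pou4f3, and by 1153 bp and -330 bp at Cdh2. H2AK119ub1 at Pou4f2 differed by -246 bp and 186 bp. Pou3f2, Nes and Pou3f1 had no such value.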

How the results depend on the processing

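No paired analysis was possible because each group had 1 library. The 32 differences between genotypes, 1 for each gene, mark and stage, were recomputed under 10 alternatives, and 0 turned when any base of a peak counted, with the outermost start site alone or with a q-value of 0.05. Among the higher-scoring 50% of peaks, 1 member (Pou3f2) had the pattern of Pou3f2, promoter H2AK119ub1 was left at 3 members in PCGF5-deficient mESCs, 3 in wild type NPCs and 5 in PCGF5-deficient NPCs, Flag-PCGF5 in NPCs at 1, and 1 member had more H2AK119ub1 in PCGF5-deficient mESCs, as with lists of equal length (1) and a window of 1000 bp (1). Lists of equal length and a window of 1000 bp left the mark at 3 members in PCGF5-deficient mESCs, and the latter at 3 in wild type NPCs. Less of both marks in PCGF5-deficient NPCs was found at 1 member with a window of 1000 bp (Pou4f3) or with peaks merged (Pou4f1).

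The following differences, PCGF5-deficient minus wild type, turned. With a window of 1000 bp they were -441 bp (Pou3f1) and -344 bp (Pou3f3) for H2AK119ub1 in mESCs, and 146 bp (Pou4f2) and -643 bp (Nes) for H3K27me3 in NPCs. With the higher-scoring 50%, H2AK119ub1 differed by -12 bp (Pou3f1) and -35 bp (Pou3f3) in mESCs and 408 bp (Pou4f2) in NPCs, and with equal length by -12 bp, -35 bp and 126 bp. With peaks merged, H2AK119ub1 differed by -3 bp at Pou3f1 in mESCs and 408 bp at Pou4f2 in NPCs, and H3K27me3 by -3156 bp at Pou3f2 in NPCs, because the merged region of PCGF5-deficient NPCs, 13147 bp long, is centred at -4049 bp, outside the window. H3K27me3 at Pou4f1 in NPCs differed by 221 bp with the gene body, and at Pou4f3 by 819 bp with a window of 5000 bp. Within 10000 bp, H3K27me3 differed by -511 bp at Pou3f3 in NPCs and -222 bp at Pou4f1 in mESCs, and H2AK119ub1 by 155 bp at Pou4f3 in mESCs. At Nes, the H3K27me3 peak of 2005 bp in PCGF5-deficient NPCs, from 72 to 2076 bp, has its centre beyond the window of 1000 bp. At Pou4f1, the PCGF5-deficient peak of 1269 bp described above is among those that count with the gene body. The cause was not tested for the others. H2AK119ub1 in mESCs at Pou3f2 was lost in both genotypes with the higher-scoring 50% and with equal length.

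With an overlap of 50% in place of 1 bp, H2AK119ub1 peaks of members in wild type NPCs overlapped by wild type mESCs went from 4 to 3 of 13 (17.2% of the promoter peaks of all genes). Those overlapped by PCGF5-deficient mESCs fell from 3 to 1 of 13 for wild type and from 4 to 2 of 16 for PCGF5-deficient NPCs (at 50%, 19.6% and 25.3% of the promoter peaks of all genes). For H3K27me3, 2 and 4 peaks of wild type NPCs and 4 and 6 of PCGF5-deficient NPCs were overlapped by wild type and PCGF5-deficient mESCs (15.6% and 11.3%, and 20.7% and 16.4%, over all genes).

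Without replicates or read totals, a peak missing from a list can reflect depth, background or the mark, and these cannot be told apart. Widths assigned by centre leave out wide domains whose centre lies outside the window.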
